A study of Homo sapiens with 6 samples.

Results

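Cells of the chronic myeloid leukemia line K562 were compared with and without hyperoside, and 5 genes among the strongest risers are described. They are the uncharacterized non-coding loci LOC102724908 and LOC105377442, the Rab regulator DENND2D, the repeat protein TRANK1 and the chondroitin sulfotransferase CHST3. These 5 genes were chosen by their measured values in this same comparison, as genes with a very large or very certain rise. Their changes are therefore given as a description and without a test. They are 5 of the 24960 genes in the deposited count table, and all 5 passed the filter on low counts that left 15095 genes for testing. The groups were 3 control libraries and 3 hyperoside libraries, all of K562, an erythroleukemia-type line that carries the BCR-ABL1 fusion. Hyperoside is quercetin 3-O-galactoside, a plant flavonoid, and the study's text gives a dose of 2 mM for this experiment. The exposure time of the sequenced cultures is not given in the sources used here. All cells came from 1 line, and nothing in the labels says whether the 3 libraries of a group came from separate cultures, so the spread between them may be technical.

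DENND2D belongs to the DENN domain proteins, many but not all of which switch Rab small GTPases to their GTP-bound form and so direct membrane traffic. DENND2D and the other DENND2 proteins are known as activators of RAB9, which carries cargo such as the mannose 6-phosphate receptors from late endosomes back to the Golgi. CHST3 is a Golgi enzyme that adds sulfate to the 6 position of N-acetylgalactosamine in chondroitin chains, the sugar polymers carried by proteoglycans such as CSPG4 and CD44. TRANK1 encodes a large protein with tetratricopeptide and ankyrin repeats and a helicase-like region whose function is poorly known. Long non-coding RNAs are transcribed and often spliced like messenger RNAs but encode no known protein, and many of them contain sequence of old transposable elements or endogenous retroviruses.

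The libraries held between 35613283 and 36754725 counts, and the TMM factors that correct for composition ranged from 0.957 to 1.03. Of the erythroid and K562 markers, 14 of 14 passed the low-count filter, with a summed level of 6074 to 7550 CPM (counts per 1e+06 counts of the library, TMM-normalized) in the control libraries and 5370 to 6408 CPM in the hyperoside libraries. The B-cell marker MS4A1 had 0 counts in the control libraries and 1 count in the hyperoside libraries, and of the fibroblast markers PDGFRA had 0 counts in all libraries, while COL1A1 (294 and 153 counts summed over control and hyperoside libraries), COL1A2 (286 and 335) and COL3A1 (136 and 279) were detected at a low level. In edgeR's quasi-likelihood test, genes with a Benjamini-Hochberg adjusted p under 0.05 and more than a 2-fold change were called differentially expressed genes (DEGs). There were 970 upregulated DEGs, 6.43% of the tested genes, and 567 downregulated DEGs. Without the fold requirement, 22.1% of tested genes were called higher and 23.2% lower, and the median log2 fold change over all tested genes was 0.00316. Every one of the 5 genes had its lowest hyperoside library above its highest control library. The rule selected for this, and 27.1% of all tested genes had the same separation.

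LOC102724908 is a non-coding locus that GENCODE 29 annotates as the lincRNA AC079466.1, on the plus strand at chr19:28606688-28615229 (GRCh38). Its 1 annotated transcript has 4 exons and 4453 bases, the same length that stands behind the deposited FPKM values. The joint of its first 2 exons is shown because it belongs to the spliced RNA and to no unspliced stretch of the locus: the lower-case letters are the last 60 bases of exon 1 and the capitals are the 72 bases of exon 2.

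LOC102724908 exon 1 to exon 2: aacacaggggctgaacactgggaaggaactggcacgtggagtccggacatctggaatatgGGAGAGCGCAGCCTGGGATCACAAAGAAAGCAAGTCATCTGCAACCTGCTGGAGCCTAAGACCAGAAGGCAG

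LOC105377442 lies on the plus strand at chr4:137483528-137487002 (GRCh38.p14, RefSeq), and the deposited table lists it as non-coding with no description and no pathway term. Sequence at the start of LOC105377442, which was not used to choose the loci, resembles part of LOC102724908. Only the start window was compared, since the transcript of LOC105377442 was not used here. The window of 250 bases before and 50 bases after the RefSeq start of LOC105377442 aligned with exon 3 of LOC102724908 at 77.9% identity over 299 aligned columns, on transcript positions 992 to 1288. It aligned with 8 GENCODE genes in all, LOC102724908 among them, and the closest match over 200 bases or more was to another gene, AC010329.1, at 80.3%, so the likeness is not particular to this pair. The best ungapped stretch of 60 bases had 54 identical bases. It lies at chr4:137483440-137483499 for LOC105377442, just before the annotated start, and at chr19:28611646-28611705 for LOC102724908. The pair is shown with the differing bases in capitals.

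LOC105377442: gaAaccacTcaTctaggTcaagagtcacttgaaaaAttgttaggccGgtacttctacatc
LOC102724908: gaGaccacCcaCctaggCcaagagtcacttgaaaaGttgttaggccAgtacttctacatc

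The likeness extended to annotated retroviral sequence. The LOC102724908 transcript aligned at 84.8% identity over 1181 bases with the GENCODE transcript of ERVE-1, a group E member of the human endogenous retroviruses. In all, 22 other GENCODE 29 genes shared at least 200 bases with it at 80% identity or more, the closest at 90.3%, and 0 genes did so at 95% or more. How the counting treated reads that map to several places is not stated, so the level of this locus carries that uncertainty. The locus also lies wholly inside 3 annotated genes of the opposite strand (AC005394.2, AC005394.1 and AC079466.2), which have 0 exons within it. Strand use in counting is not stated, so unspliced reads of these genes and reads of the locus cannot be told apart. The list of 22 genes was made after the values were seen. Of these, 11 were in the count table and 8 were tested, with 2 called higher, 0 lower, 6 not called and a median log2 fold change of 0.23, so that the higher genes were close to the 22.1% of all tested genes. The 2 were TFPI, which encodes an inhibitor of blood coagulation, at 0.59 on the log2 scale with a standard error (SE) of 0.07 (edgeR's quasi-likelihood test, Benjamini-Hochberg adjusted p = 3.28e-06), and UBXN8 at 0.32 with a standard error of 0.12 (adjusted p = 0.0445). The UBXN8 call was lost in 9 of 15 alternative analyses, among them DESeq2 and limma. The stretch of TFPI that matches LOC102724908 lies on the opposite strand to it.

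LOC102724908 had 12265, 13500 and 12402 counts in the control libraries and 82860, 89540 and 71558 counts in the hyperoside libraries. As TMM-normalized levels these were 348.8, 383.5 and 347.1 CPM in control and 2258, 2438 and 1981 CPM under hyperoside. The groups did not overlap. In such bulk libraries, more cells that express a gene and more RNA per cell cannot be told apart. The mean was 359.8 ± 20.5 CPM (SD, n = 3) in control and 2226 ± 230.2 CPM (SD, n = 3) under hyperoside, a log2 fold change of 2.63 with a standard error of 0.08, or 6.19-fold. The lowest hyperoside library stood 5.17-fold above the highest control library. Per length, its level rose from 79.4 ± 5.19 to 508.4 ± 54.9 FPKM (SD, n = 3 each), which moved it from rank 737 to rank 104 among all genes of the table and from rank 17 to rank 4 among the genes listed as non-coding. It took up 0.0354% of all counts in control and 0.226% under hyperoside. Among all upregulated DEGs it had the smallest p, which is the property it was chosen for.

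LOC105377442 had 414, 531 and 548 counts in the control libraries and 3714, 4012 and 3706 counts in the hyperoside libraries. These were 11.8, 15.1 and 15.3 CPM in control and 101.2, 109.2 and 102.6 CPM under hyperoside. Control library 1 was the lowest of its group, and the 3 hyperoside libraries were close together. The mean moved from 14.1 ± 1.99 to 104.3 ± 4.30 CPM (SD, n = 3 each), which the fit put at a log2 fold change of 2.89 with a standard error of 0.10, or 7.42-fold. Its level per length moved from rank 7220 to rank 1527 of all genes, and from rank 243 to rank 29 of the non-coding genes. Among tested non-coding genes, 293 of 2300 or 12.7% were upregulated DEGs, beside 6.43% of all tested genes. Their share of downregulated DEGs was not computed, so no direction of the class follows.

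**Figure D1:**
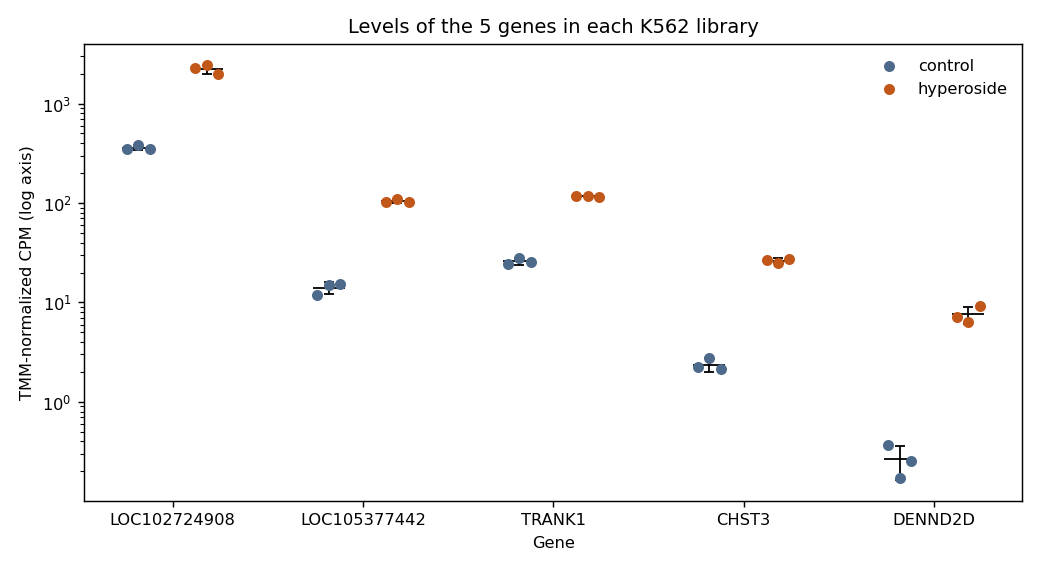
TMM-normalized CPM on a log axis for the 5 genes in each K562 library, with control libraries in blue and hyperoside libraries in orange. Points are libraries, and the horizontal bar and whiskers are the mean and SD of 3 libraries. The hyperoside points of every gene lie above all of its control points, from 5.17-fold to 7.02-fold for LOC102724908 and from 17.3-fold to 54.4-fold for DENND2D.

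DENND2D lies on the minus strand at chr1:111185969-111204578 (GRCh38.p14), and the deposited annotation gives it a guanyl-nucleotide exchange factor activity and the Reactome term for RAB GEFs. It was close to silent in control cells, with 13, 6 and 9 counts, and reached 262, 235 and 335 counts under hyperoside. The levels were 0.370, 0.170 and 0.252 CPM in control and 7.14, 6.40 and 9.28 CPM under hyperoside. The control values rest on few reads, and the coefficient of variation was 37.9% in control against 19.6% under hyperoside. The mean went from 0.264 ± 0.10 to 7.60 ± 1.49 CPM (SD, n = 3 each), and the log2 fold change was 4.83 with a standard error of 0.30, or 28.4-fold. Among the 11346 tested genes with a mean of at least 100 counts this was the largest rise, ahead of FPR3, a formyl peptide receptor, at 3.81 and CEBPE, a granulocyte transcription factor, at 3.73 on the log2 scale. Even so, DENND2D remained a gene of modest level, at 1.55, 1.38 and 1.98 FPKM under hyperoside and rank 10320 of all genes. Its size depended on how low values were treated, since the log2 fold change was 3.48 on the log2(FPKM + 0.1) scale and 1.32 on the log2(FPKM + 1) scale.

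The closest relatives of DENND2D were not called in either direction. DENND2A had 9 counts in control and 7 counts under hyperoside and was not tested. DENND2B had a log2 fold change of 0.41 with a standard error of 0.18 (edgeR's quasi-likelihood test, Benjamini-Hochberg adjusted p = 0.0681), and was called in 3 of 15 alternatives. DENND2C had a log2 fold change of -0.49 with a standard error of 0.23 (adjusted p = 0.0971 in the same test) and was called in 1 of 15 alternatives. Across the other DENN domain genes, 26 of 27 were tested, 6 were called higher, 6 lower and 14 not called, with a median log2 fold change of 0.05. These shares lie near the 22.1% and 23.2% of all tested genes.

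Among the 6 higher genes, 2 were upregulated DEGs. FNIP2, a partner of folliculin at the lysosome, rose from 40.7 ± 6.31 to 91.3 ± 10.9 CPM (log2 fold change 1.17, SE 0.11, adjusted p = 1.8e-07 in edgeR's quasi-likelihood test). SMCR8, a partner of C9orf72 in an autophagy-related complex, rose from 24.7 ± 4.75 to 50.3 ± 1.83 CPM (log2 fold change 1.03, SE 0.11, adjusted p = 1.12e-06). C9orf72 itself fell by 0.59 on the log2 scale, with a standard error of 0.16 (adjusted p = 0.00553). Another fall was that of NPRL2, a subunit of the GATOR1 complex that restrains mTORC1, at -0.63 with a standard error of 0.10 (adjusted p = 8.49e-05). The other higher genes were DENND4C at 0.47, FNIP1 at 0.39, FLCN at 0.28 and DENND5A at 0.24, and the other lower genes were DENND1A at -0.47, SBF1 at -0.43, MADD at -0.36 and DENND3 at -0.91. The calls of FLCN, DENND5A and DENND3 were lost in 3, 2 and 8 of 15 alternatives.

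**Figure D2:**
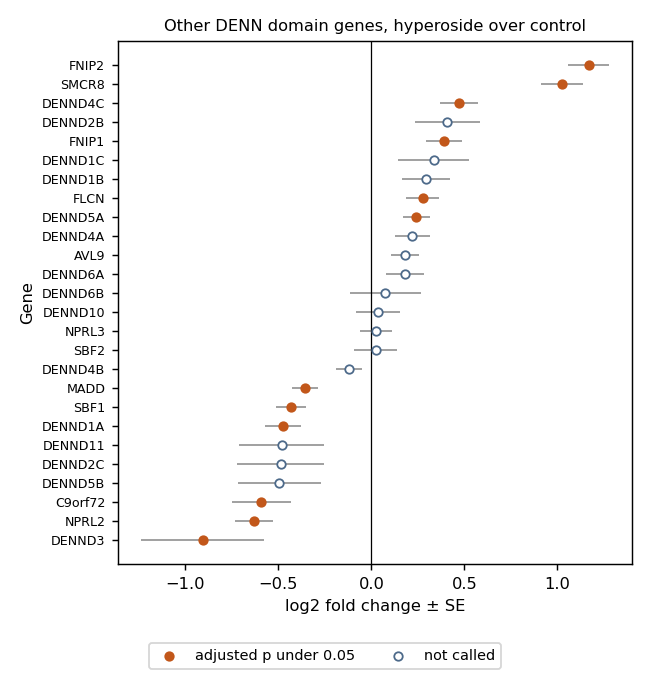
log2 fold change, hyperoside over control, of the 26 other tested DENN domain genes, with the standard error of the fit as a horizontal line. Filled points had an adjusted p under 0.05 in edgeR's test and open points did not. FNIP2 at 1.17 and SMCR8 at 1.03 stand at the upper end and DENND3 at -0.91 at the lower end, all far from the 4.83 of DENND2D.

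RAB9A, the main substrate assigned to the DENND2 proteins, was at 29.9 ± 1.36 CPM in control and 28.9 ± 0.775 CPM under hyperoside (log2 fold change -0.05, SE 0.09, adjusted p = 0.693 in edgeR's quasi-likelihood test). Its paralog RAB9B had 0 counts in control and 1 count under hyperoside. Of 8 genes of RAB9-dependent transport, 7 were tested, with 2 higher, 1 lower, 4 not called and a median log2 fold change of -0.05, beside 22.1% higher and 23.2% lower over all tested genes. The 2 higher genes encode cargo receptors. IGF2R, the cation-independent mannose 6-phosphate receptor, moved from 270.7 ± 8.93 to 451.6 ± 13.4 CPM (log2 fold change 0.74, SE 0.07, adjusted p = 1.03e-07). M6PR, the cation-dependent receptor, moved from 71.8 ± 3.86 to 92.4 ± 4.02 CPM (log2 fold change 0.37, SE 0.08, adjusted p = 0.000878). PLIN3, known as a cargo adaptor and as a lipid droplet coat protein, fell by 0.35 on the log2 scale (SE 0.08, adjusted p = 0.00194).

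CHST3 lies on the plus strand at chr10:71964395-72013558 (GRCh38.p14). It had 78, 98 and 76 counts in the control libraries and 971, 908 and 999 counts in the hyperoside libraries. The levels were 2.22, 2.78 and 2.13 CPM in control and 26.5, 24.7 and 27.7 CPM under hyperoside. Both groups were narrow, with coefficients of variation of 15% and 5.61%. The mean went from 2.38 ± 0.356 to 26.3 ± 1.47 CPM (SD, n = 3 each), which the fit put at a log2 fold change of 3.47 with a standard error of 0.14, or 11-fold, the rank 4 among genes with a mean of at least 100 counts. Its level per length was 2.78, 2.58 and 2.86 FPKM under hyperoside, against 0.217, 0.282 and 0.219 FPKM in control. On the log2(FPKM + 1) scale the same change was 1.59.

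Of 29 other listed genes that build chondroitin sulfate 21 were tested, with 4 higher, 6 lower, 11 not called and a median log2 fold change of -0.06, near the shares of 22.1% and 23.2% over all tested genes. The other known chondroitin 6-O-sulfotransferase, CHST7, had 17 counts in control and 9 counts under hyperoside and was too low to test. The 4-O-sulfotransferase CHST11 rose from 65.1 ± 2.34 to 88.9 ± 0.481 CPM (log2 fold change 0.45, SE 0.07, adjusted p = 9.27e-05 in edgeR's quasi-likelihood test). The related CHST12 had a log2 fold change of -0.13 (SE 0.11, adjusted p = 0.367), and CHST13 had 1 count in control and 0 counts under hyperoside. Per length, CHST3 was below CHST11 in both groups, which had mean levels of 10.8 FPKM in control and 15.3 FPKM under hyperoside, and it passed from below to above CHST12, which had mean levels of 1.03 and 0.980 FPKM.

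B3GALT6, which adds the second galactose of the linker that joins the chain to its protein, was the largest mover of the list and rose from 7.2 ± 0.98 to 20.5 ± 2.74 CPM (log2 fold change 1.51, SE 0.14, adjusted p = 1.18e-07). At the other end PXYLP1, the phosphatase of the linker xylose, fell by 1.28 on the log2 scale (SE 0.33, adjusted p = 0.00442). The remaining higher genes were CHST14 at 0.51, a dermatan sulfotransferase, and SLC35D1 at 0.47, a transporter of nucleotide sugars. The remaining lower genes were XYLT2 at -0.61, which starts the chain, UGDH at -0.50, which makes UDP-glucuronate, CHPF at -0.48, B3GAT3 at -0.36 and CHSY1 at -0.27. The CHSY1 call was lost in 7 of 15 alternatives, and that of CHST14 without control library 2.

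Of 18 listed proteins that carry these chains 12 were tested, with 4 higher, 1 lower, 7 not called and a median log2 fold change of 0.74, beside 22.1% higher, 23.2% lower and a median of 0.00316 over all tested genes. Whether the list differs from other genes was not tested. CSPG4, also known as NG2, rose from 1.06 ± 0.0524 to 5.21 ± 0.424 CPM (log2 fold change 2.30, SE 0.24, adjusted p = 4.82e-07 in edgeR's quasi-likelihood test). SDC1, a syndecan with heparan and chondroitin chains, rose from 9.74 ± 1.62 to 28.2 ± 2.11 CPM (log2 fold change 1.53, SE 0.13, adjusted p = 3.34e-08). CD44, the hyaluronan receptor, rose from 49.5 ± 1.95 to 84.6 ± 6.65 CPM (log2 fold change 0.77, SE 0.08, adjusted p = 8.85e-07). SRGN, the main granule proteoglycan of blood cells, was at 207 ± 5.61 CPM in control and 220.3 ± 5.36 CPM under hyperoside (log2 fold change 0.09, adjusted p = 0.292). SPOCK2 was higher at 0.85 (SE 0.32, adjusted p = 0.0403) but lost its call in 7 of 15 alternatives, and CSPG5 was lower at -0.81 (SE 0.25, adjusted p = 0.0143) but lost its call without control library 1 or hyperoside library 1.

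Of the 10 breakdown enzymes, all tested, 6 were called higher, 0 lower and 4 not called, with a median log2 fold change of 0.38, beside the 22.1% higher and 23.2% lower over all tested genes and without a test of the list. The hyaluronidases HYAL3 and HYAL1 had log2 fold changes of 2.12 (SE 0.27, adjusted p = 6.15e-06 in edgeR's quasi-likelihood test) and 1.19 (SE 0.23, adjusted p = 0.000359). The lysosomal sulfatases ARSB, which removes 4-sulfate, and GALNS, which removes 6-sulfate, had log2 fold changes of 0.92 (SE 0.16, adjusted p = 0.00019) and 0.70 (SE 0.12, adjusted p = 0.000187). HEXA, a subunit of a lysosomal hexosaminidase, was higher at 0.22 on the log2 scale, with its call lost in 4 of 15 alternatives. Without control library 1, IDS was called lower, so that the count of lower genes was 1. Among 8 other carbohydrate sulfotransferases only 2 were tested, and CHST2, which sulfates N-acetylglucosamine, was higher at 0.64 (SE 0.11, adjusted p = 0.000111).

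**Figure D3:**
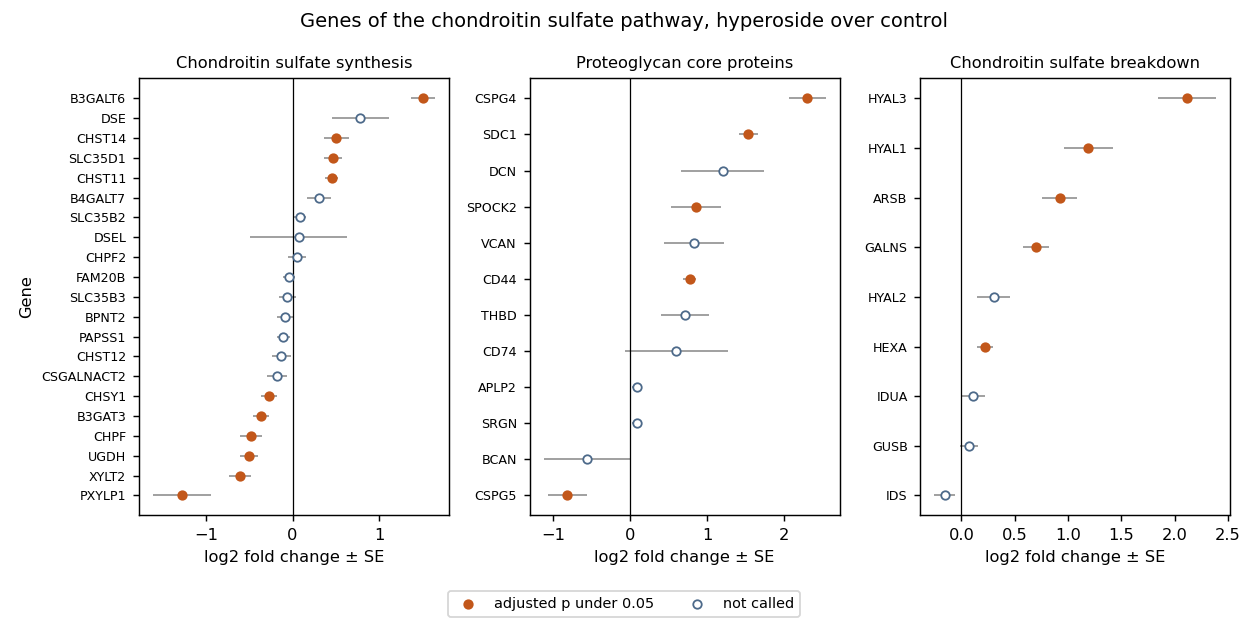
log2 fold change, hyperoside over control, of the tested genes of chondroitin sulfate synthesis (21 genes without CHST3), of proteoglycan core proteins (12 genes) and of breakdown enzymes (10 genes, of which 1 is not drawn), with the standard error as a horizontal line. Filled points had an adjusted p under 0.05 in edgeR's test and open points did not. Synthesis genes lie on both sides of 0, from PXYLP1 at -1.28 to B3GALT6 at 1.51, while the breakdown genes called all lie above 0, from HEXA at 0.22 to HYAL3 at 2.12.

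TRANK1 lies on the minus strand at chr3:36826819-36945744 (GRCh38.p14), over 118926 bases. It had 851, 986 and 907 counts in the control libraries and 4343, 4291 and 4108 counts in the hyperoside libraries. The levels were 24.2, 28.0 and 25.4 CPM in control and 118.3, 116.8 and 113.7 CPM under hyperoside. The hyperoside libraries were the tightest of all 5 genes, with a coefficient of variation of 2.02%. The mean went from 25.9 ± 1.95 to 116.3 ± 2.34 CPM (SD, n = 3 each), which the fit put at a log2 fold change of 2.17 with a standard error of 0.08, or 4.50-fold. This was the smallest fold of the 5 genes and rank 168 of all tested genes by fold, but rank 4 of the upregulated DEGs by p. The gene ranked between it and LOC105377442 by p was TXNIP, an arrestin that restrains glucose uptake and thioredoxin, at 151.8 and 603.1 CPM. CHST3 was at rank 5 by p, followed at rank 6 by TCN1, a vitamin B12 carrier, with a log2 fold change of 1.81. DENND2D was only at rank 29 by p, and at rank 9 of all tested genes by fold.

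The superfamily 1 helicases have a motor region like that of TRANK1. Of 14 genes 13 were tested, with 2 higher, 2 lower, 9 not called and a median log2 fold change of -0.05, beside 22.1% higher and 23.2% lower over all tested genes. MOV10, an RNA helicase that restrains retroelements, was higher at 0.43 (SE 0.07, adjusted p = 0.000122 in edgeR's quasi-likelihood test), and PIF1, a DNA helicase active at telomeres, was lower at -1.15 (SE 0.12, adjusted p = 5e-07). UPF1, the central helicase of nonsense-mediated decay, was lower at -0.25 (SE 0.07, adjusted p = 0.00915), a call lost without hyperoside library 1. DNA2 was higher at 0.20 (SE 0.08, adjusted p = 0.049), a call lost in 6 of 15 alternatives.

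By level per length, the order of the 5 genes was LOC102724908, LOC105377442, TRANK1, CHST3 and DENND2D in both groups. In control libraries the FPKM ranges were 74.9 to 85.1, 4.19 to 5.73, 1.93 to 2.31, 0.217 to 0.282 and 0.0357 to 0.0750, so no neighbours in this order overlapped. Under hyperoside they were 448.7 to 556.9, 38.5 to 41.4, 9.57 to 10.1, 2.58 to 2.86 and 1.38 to 1.98, again without overlap. The order by fold was almost the reverse, with DENND2D first and TRANK1 last. The 5 genes together accounted for 2078 CPM, or 13.1% of the 15917 CPM gained by all upregulated DEGs, and LOC102724908 alone for 11.7%.

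**Figure D4:**
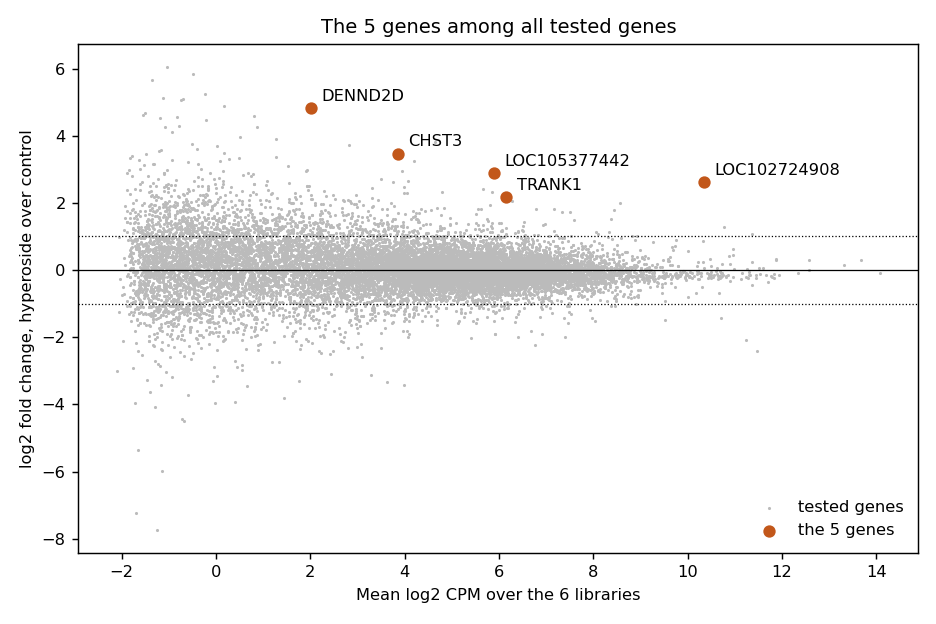
log2 fold change, hyperoside over control, against mean log2 CPM over the 6 libraries for the 15095 tested genes (grey) and the 5 genes (orange), with dotted lines at a 2-fold change. The 5 genes lie along the upper edge of the cloud, from DENND2D at a fold change of 4.83 on the log2 scale to LOC102724908 at 2.63, the latter far to the right at a high level.

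Likeness between profiles was measured as the root mean square difference of log2 CPM over the 6 libraries after centring each gene on its control mean. Since there are only 2 conditions, it mostly follows the size of the rise. The closest pair among the 5 genes was that of both non-coding loci at 0.232, and the farthest was DENND2D and TRANK1 at 1.77. Outside the set, the gene closest to LOC102724908 was NOX5, a calcium-regulated NADPH oxidase, at 0.142, and the one closest to LOC105377442 was KCP, a secreted regulator of BMP signaling, at 0.175. TRANK1 was closest to CSPG4 at 0.0900 and CHST3 to CEBPE at 0.189. DENND2D had no near partner, with FRMD1 first at 0.398.

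The chromosomal neighbours of the 5 genes were not used to choose them. Within 250 kb of them RefSeq lists 64 genes, of which 16 were tested, with 6 called higher, 3 lower, 7 not called, 1 upregulated DEG and a median log2 fold change of 0.11. Over all tested genes the shares were 22.1% higher, 23.2% lower and 6.43% upregulated DEGs. LOC102724908 had no tested neighbour among 5 genes. The single tested neighbour of LOC105377442, the protocadherin gene PCDH18 at 31916 bases, fell from 1.38 ± 0.297 to 0.466 ± 0.0863 CPM (log2 fold change -1.56, SE 0.44, adjusted p = 0.00711 in edgeR's quasi-likelihood test), against the rise of the locus itself.

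CHI3L2, which encodes a chitinase-like secreted protein and runs away from DENND2D on the opposite strand, had 15, 11 and 21 counts in control and 86, 48 and 46 counts under hyperoside. It rose by a log2 fold change of 1.88 with a standard error of 0.44 (adjusted p = 0.00208 in edgeR's quasi-likelihood test), the only neighbour that was an upregulated DEG. The starts of both genes face each other. In GENCODE 29 the longest extent of CHI3L2 overlaps the DENND2D body by 3808 bases, through 1 of 17 CHI3L2 transcripts that starts inside DENND2D, while the RefSeq bodies lie 23081 bases apart. The exons of the pair share 0 bases, and whether counting used strand is not stated. CEPT1, at 865 bases from the other end of DENND2D, was lower at -0.22 (SE 0.08, adjusted p = 0.0256), a call lost in 6 of 15 alternatives. DRAM2 at 45876 bases had a log2 fold change of 0.03 (adjusted p = 0.754).

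Next to TRANK1, EPM2AIP1 at 39299 bases was higher at 0.30 on the log2 scale (adjusted p = 0.00748 in edgeR's quasi-likelihood test), with its call lost in 1 of 15 alternatives. Next to CHST3, the proteoglycan gene SPOCK2 at 45476 bases was higher, as given above, and PSAP, ASCC1, ANAPC16 and VSIR were not called. The 2 genes farther from DENND2D that were higher were LRIF1 at 0.34 and ATP5PB at 0.19, and OVGP1 was lower at -0.88. The OVGP1 and ATP5PB calls were lost in 2 and 6 of 15 alternatives.

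**Figure D5:**
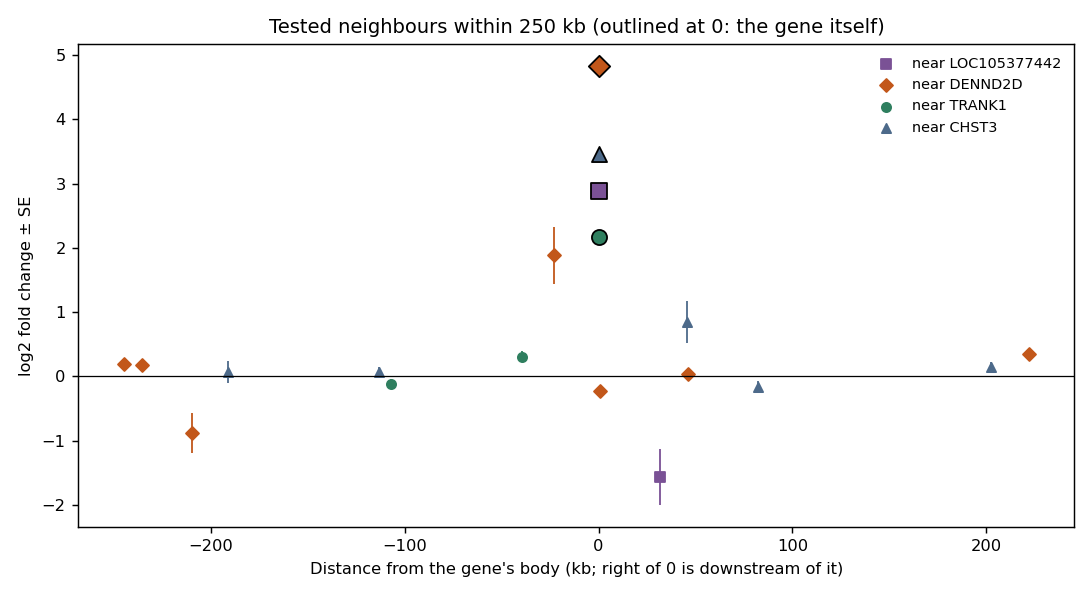
log2 fold change with standard error of the 16 tested genes (1 of them not drawn) within 250 kb of LOC105377442, DENND2D, TRANK1 and CHST3, against the distance in kb between gene bodies, with the 4 genes themselves outlined at 0. Apart from CHI3L2 at 1.88 upstream of DENND2D and PCDH18 at -1.56 downstream of LOC105377442, the neighbours lie between -0.88 and 0.85.

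RefSeq start windows, from 250 bases before to 50 bases after a start, were given for 4 of the 5 genes, and LOC102724908 was not matched. In all 35116 windows the median GC content was 58.7% and the median ratio of observed to expected CpG was 0.579. The windows of DENND2D and LOC105377442 were poor in CpG, with ratios of 0.198 and 0.156. That of TRANK1 had 0.980, above 89.7% of all windows. On the minus strand a gene starts at its highest base. Those of DENND2D (111204578) and TRANK1 (36945744) lie outside these windows, which describe another start inside each gene. CHST3 had 3 windows with 73.3%, 77.0% and 61.0% GC. The windows were searched on both strands for the TATA box TATAAA, the CCAAT box CCAAT, the GC box GGGCGG, the E-box CACGTG, the XRE core GCGTG, the AP-1 site TGANTCA, the antioxidant response element core TGACNNNGC, the CRE TGACGTCA, the GATA site AGATAA, the ETS site CCGGAAG, the NRF1 site GCGCATGCG and the ATF4 composite site TGATGNAA. A match of letters is a description and not evidence of binding.

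The windows of DENND2D and LOC105377442 held none of the 12 motifs. In the window of DENND2D, 126 bases, or 42% of it, are also the first exon of a CHI3L2 transcript read from the opposite strand. It is printed for this reason, as is the window of TRANK1, which held the E-box at 41 bases before the start and a GC box 22 bases after it, in capitals. The E-box occurs in 7.26% of all windows and the GC box in 45.0%. Of the CHST3 windows, the first held 1 GC box, at 236 bases before its start, and the second held 2, at 75 and 56 bases before its start. The gene start listed above lies in the first window. The third window of CHST3, printed because it held other motifs, had an ETS site and an AP-1 site, in capitals, at 68 and 35 bases before its start, which occur in 10.3% and 7.71% of all windows, and the XRE core at 14 bases before and 7 bases after it, which occurs in 36.5%. They are the sequences chr1:111200597-111200896 (minus strand), chr3:36945005-36945304 (minus strand) and chr10:71965091-71965390 (plus strand) of GRCh38.p14.

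DENND2D: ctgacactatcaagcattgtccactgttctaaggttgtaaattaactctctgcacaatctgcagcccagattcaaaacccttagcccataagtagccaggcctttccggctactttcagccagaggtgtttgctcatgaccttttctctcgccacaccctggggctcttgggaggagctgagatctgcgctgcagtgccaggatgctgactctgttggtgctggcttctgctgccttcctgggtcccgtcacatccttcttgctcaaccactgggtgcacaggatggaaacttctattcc
TRANK1: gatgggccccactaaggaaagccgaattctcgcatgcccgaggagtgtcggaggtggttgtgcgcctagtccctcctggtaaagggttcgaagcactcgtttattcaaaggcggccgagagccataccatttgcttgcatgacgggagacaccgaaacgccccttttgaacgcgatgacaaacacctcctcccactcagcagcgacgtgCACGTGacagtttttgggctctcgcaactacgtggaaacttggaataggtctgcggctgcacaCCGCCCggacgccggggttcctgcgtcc
CHST3: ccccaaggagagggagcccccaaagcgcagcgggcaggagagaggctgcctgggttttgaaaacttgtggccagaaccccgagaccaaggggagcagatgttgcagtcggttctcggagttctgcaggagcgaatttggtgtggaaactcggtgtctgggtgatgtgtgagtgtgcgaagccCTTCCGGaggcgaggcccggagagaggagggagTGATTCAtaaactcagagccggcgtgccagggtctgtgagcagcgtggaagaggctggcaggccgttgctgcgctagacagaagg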

How the data were processed

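The authors extracted total RNA of K562 cells and sequenced cDNA libraries. The study's text does not say whether poly(A) RNA was selected or ribosomal RNA removed. The submitters' processing notes name fastp, HISAT2, HTSeq and the build hg38, without versions. One deposited table holds whole-number read counts per gene, and another holds the authors' FPKM values, which are those counts per kilobase of a gene length and per 1e+06 counts. Both units are given for each library beside annotation columns. Strand use, multi-mapped reads and the annotation release are not given in the sources used here.

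Counts were filtered with edgeR 4.0.16 (filterByExpr, at least 10 counts and 15 in total), normalized by TMM and tested by the quasi-likelihood test of 3 hyperoside against 3 control libraries, with Benjamini-Hochberg adjustment over all 15095 tested genes. R was 4.3.3. DEGs needed an adjusted p under 0.05 and more than a 2-fold change. The study's methods name an earlier DESeq package, which was replaced by edgeR, with DESeq2 1.42.0 and limma 3.58.1 as alternatives. In a test on simulated counts the scripts were checked before use. Total counts of 35613283 to 36754725 per library set the precision.

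The 5 genes and the gene lists were chosen with earlier results of these data known. Genes named in the text are those 5, the genes next to them by p or fold, the 3 most alike in profile, the list genes with the largest changes and those of closest function, and neighbours within 250 kb. Start windows and gene positions came from RefSeq (GRCh38.p14), except the position of LOC102724908, which came from GENCODE 29. Transcripts came from GENCODE 29 and similarity from blastn 2.17.0. The motifs were a list of letters set for the search. Some single genes that enter the counts of lists and neighbours are not reported here.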

Additional observations from a re-analysis of the deposited data

How the results depend on the processing

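For 23 results the alternative analyses gave 349 values, of which 326 stayed within their limits, 23 moved further and 0 reversed. Each result had 15 alternatives, and each neighbour count had 17. The limit was a set ratio to the main value for counts, and the SD between libraries for log2 fold changes. The alternatives were DESeq2, its size factors in edgeR, library totals without TMM, no low-count filter, a filter of 1 CPM in 3 libraries, limma on log2 CPM and on log2 FPKM with 2 pseudocounts, a replicate block, each library left out, and other neighbour windows. On log2(FPKM + 1) there were 208 upregulated and 136 downregulated DEGs, and the log2 fold changes were 2.73 for LOC105377442, 1.32 for DENND2D, 1.80 for TRANK1 and 1.59 for CHST3. On log2(FPKM + 0.1) they were 3.48 for DENND2D and 3.07 for CHST3. A pseudocount compresses changes of low levels by its construction. With 1 library left out at a time, upregulated DEGs ranged from 864 to 1042 and downregulated DEGs from 510 to 574. Genes called in the same runs ranged from 1 to 2 for RAB9 transport lower, from 0 to 1 for core proteins lower, from 0 to 1 for breakdown enzymes lower, from 1 to 2 for helicases higher, from 1 to 2 for helicases lower, from 3 to 6 for neighbours higher and from 1 to 3 for neighbours lower. DENN domain genes ranged from 4 to 7 higher and from 5 to 7 lower. Synthesis genes ranged from 3 to 4 higher and from 5 to 8 lower. Core proteins ranged from 3 to 4 higher, and breakdown enzymes from 5 to 8 higher. Within 500 kb, 31 neighbours were tested, with 8 higher, 8 lower, 15 not called and 2 upregulated DEGs. Over all tested genes 22.1% were higher, 23.2% lower and 6.43% upregulated DEGs. Same-numbered libraries correlated at -0.325, -0.0527 and -0.0414 in their deviations from the group means over 10766 genes. No control library correlated best with its own number. Deviations within a group of 3 are not independent, so this cannot exclude that same-numbered libraries were handled together. With the replicate block, 1 helicase was higher, and there were 924 upregulated and 542 downregulated DEGs. Of 75 single genes called in the lists, neighbourhoods and rankings, 58 kept call and direction in every alternative, and 0 of 138 reversed. The depth limits DENND2D most, with at most 13 counts in a control library.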

Other observations

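Genes whose symbol starts with ERV, which name copies of human endogenous retroviruses, were looked at after the likeness of LOC102724908 to such sequence had been seen, so the values are given without a test. Of 9 such genes in the count table, 3 had every hyperoside library above every control library, beside 27.1% of all tested genes. These shares are over unlike sets. The 27.1% covers only genes that passed the low-count filter, whereas 3 of the 9 had fewer than 50 counts summed over the 6 libraries. ERVFRD-1, which encodes syncytin-2, had 40, 32 and 65 counts in control and 164, 92 and 167 counts under hyperoside. ERVK13-1 had 304, 336 and 314 counts in control and 600, 572 and 463 counts under hyperoside. ERV3-1 had 1328, 1688 and 1936 counts in control and 2400, 2204 and 2123 counts under hyperoside. In the other direction, ERVV-2 had 39 counts summed over the control libraries and 8 counts summed over the hyperoside libraries, while ERVV-1 had 82 in each group. ERVW-1 and ERVK3-1 had 0 counts in all libraries.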
